A study of Arabidopsis thaliana with 4 samples.

Results

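The light-harvesting antenna and the nuclear-encoded subunits of photosystems I and II were described in rosettes of Arabidopsis thaliana labelled 35S:∆13RAP2.12 and in wild-type rosettes of the accession Columbia-0 (Col-0). The genes were chosen by name and locus as LHCA, LHCB, ELIP, PSBS, PSA and PSB genes, 44 of the 27826 loci with a probe set on the arrays, and all 44 were measured. They fall into 6 groups: 6 LHCA genes of the photosystem I antenna, 9 LHCB1, LHCB2 and LHCB3 genes of the trimeric photosystem II antenna, 6 LHCB4 to LHCB7 genes of its monomeric antenna, the 3 genes ELIP1, ELIP2 and PSBS, 11 photosystem I subunits and 9 photosystem II subunits. RAP2.12 is an ethylene response factor of group VII that is broken down in the presence of oxygen through its amino terminus, and ∆13RAP2.12 names a form of it that lacks the start of the protein. In the transgenic plants this form is driven by 35S, a promoter from a plant virus that works in nearly all organs. Both lines were in the Columbia-0 background, and whole rosettes were taken at 4 weeks, 10 h into a light period of 12 h. There were 2 arrays labelled 35S:∆13RAP2.12 and 2 Col-0 arrays. The labels do not say whether the replicates were separate plants, pools or independent transgenic lines, so every p-value speaks only of these arrays. The limma p-values and intervals also draw the variance of each gene partly from all probe sets.

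Light is absorbed by chlorophyll held in LHC proteins of the thylakoid membrane and passed to the reaction centres of the photosystems, which drive electrons from water to ferredoxin. All LHC proteins and many smaller subunits are encoded in the nucleus, while the reaction centre cores and other small subunits are encoded in the plastid. In leaves the nuclear genes belong to the most highly expressed ones, and they are known to be controlled together by light, the clock, plastid signals and GLK transcription factors.

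RAP2.12 itself was not measurably different. RAP2.12 (AT1G53910) had log2 levels of 11.28 and 11.06 in the samples labelled 35S:∆13RAP2.12, and 11.07 and 11.16 in Col-0 (log2 difference 0.06, SE 0.13, limma adjusted p = 0.879). The groups overlapped, so the label was not borne out by this probe set, and the sources used here do not say which part of the transcript it reads. All directions below are those of the arrays labelled 35S:∆13RAP2.12 relative to Col-0. The rosette label was checked against markers. The 4 leaf markers RBCS1A, RCA, GLDP1 and CA1 lay between 12.22 and 13.09 on every array, while all 4 root hair markers stayed under 4.80, the lower quartile of all values. Of the flower markers 3 of 5, and of the seed markers 2 of 4, were under that quartile on every array. The flower marker AG was above it, at 5.22 and 5.45 in 35S:∆13RAP2.12 against 6.27 and 6.60 in Col-0. Its difference of -1.10 did not pass (limma adjusted p = 0.0690).

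None of the 44 antenna and photosystem transcripts passed the test. With limma and Benjamini-Hochberg adjustment over all probe sets, 0 of 44 were called at an adjusted p below 0.05, against 603 of all 27826 probe sets, or 2.17% (1.74% higher and 0.424% lower). The smallest adjusted p among the 44 was 0.256. At an unadjusted limma p below 0.05, 2 of the 44 stood out, ELIP2 and LHCB2.3, both higher, where 16.2% of all probe sets did. This count depends on how the variance is modelled. It was 10 of the 44 when the prior variance followed the signal level. The absence of calls does not show equal levels. The width of the intervals says how much difference remains possible, with variances drawn partly from all probe sets. For 41 of the 44 genes the 95% interval lay within a 2-fold change in either direction, and for 37 it lay within a 1.5-fold change. Of all 27826 probe sets, 22994 had an interval within 2-fold and 13280 within 1.5-fold. The 3 genes whose interval reached past 2-fold were LHCB1.1, LHCB2.3 and ELIP2.

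**Figure D1:**
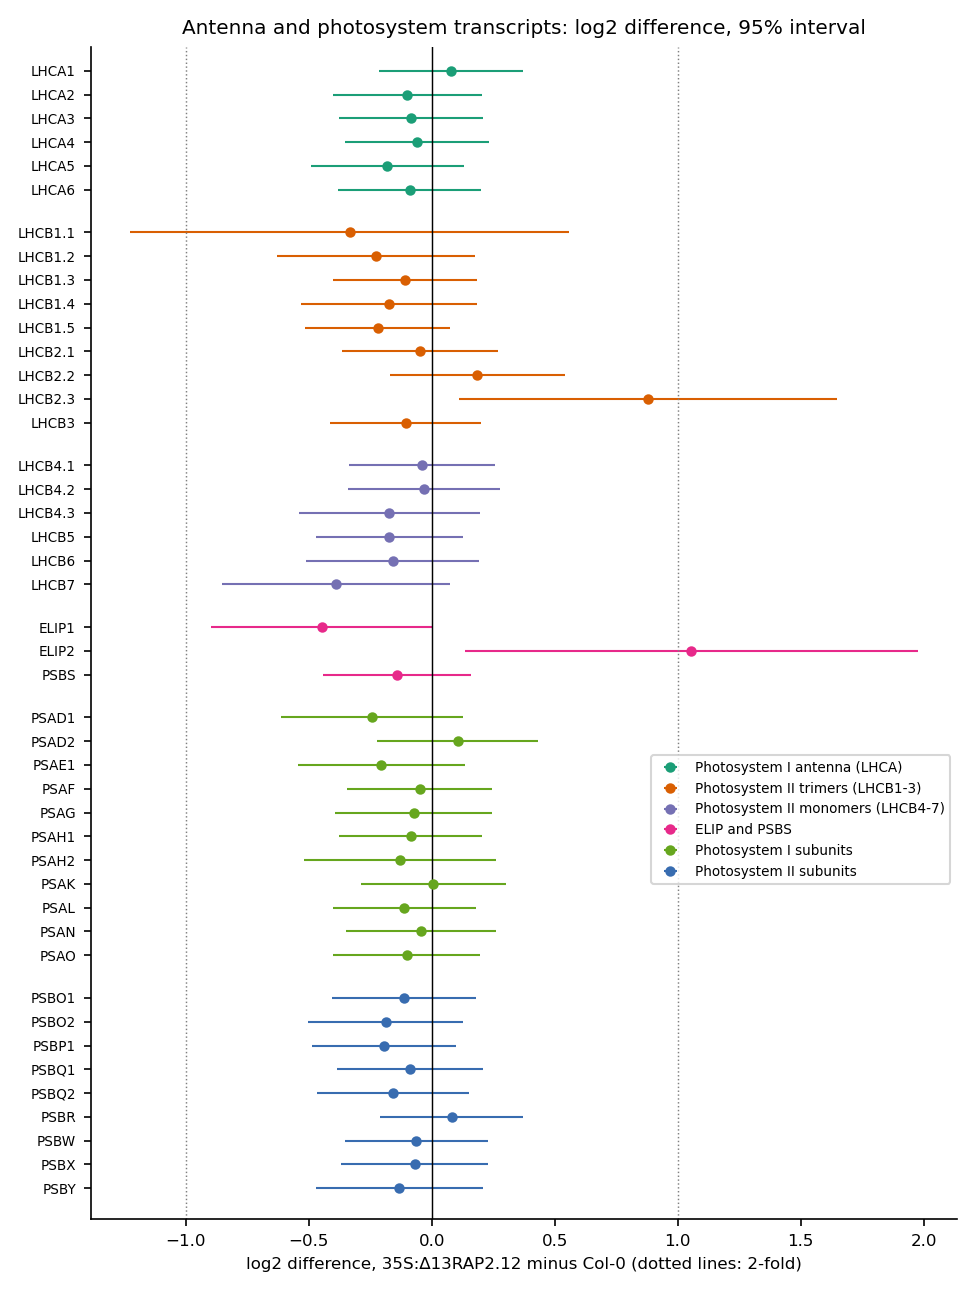
Log2 difference of each of the 44 genes, arrays labelled 35S:∆13RAP2.12 minus Col-0, with its 95% limma interval (2 arrays in each group). Points left of 0 are lower in 35S:∆13RAP2.12. ELIP2 and LHCB2.3 lie to the right with intervals that do not reach 0, and 37 of the 44 points lie left of 0.

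Most differences were small and below 0. The log2 difference was below 0 in 37 of the 44 genes (84.1%), while 57.6% of all probe sets were below 0. Its median over the 44 genes was -0.10 with quartiles of -0.17 and -0.05, beside a median of -0.04 with quartiles of -0.20 and 0.13 over all probe sets. In 30 genes both arrays labelled 35S:∆13RAP2.12 lay below both Col-0 arrays, and in 5 genes above them. Over all probe sets the groups were separated in this way in 29.1% downwards and 19.5% upwards, 48.6% in all. The size was under 0.25 in 39 of the 44 genes (88.6%) and in 64.4% of all probe sets. The exceptions among the 44 were ELIP2, LHCB2.3, ELIP1, LHCB7 and LHCB1.1. Among these 44 genes the median gap between replicates was 0.0558 for the arrays labelled 35S:∆13RAP2.12 and 0.0692 for Col-0, while the median size of the difference between groups was 0.111. In 25 of the 44 genes (56.8%) the difference was larger than both replicate gaps, as it was in 36.0% of all probe sets. With 1 array left out, the difference of 29 of the 44 genes moved by more than 1.5 times, and in 6 of these its sign changed. No test of the joint shift was made.

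Most of these genes were highly expressed. Of the 44 genes, 33 had a mean level above the 90th percentile of all probe sets, and 31 of these 33 were below 0, with a median of -0.11. Over all 2783 probe sets above that percentile, 70.1% were below 0 and the median was -0.06. The arrays were separated by group, downwards, in 26 of the 33 genes and in 41.8% of the 2783 probe sets. When the values were quantile-normalized again, the median of the 44 genes was -0.0594, 34 genes were below 0, and the median of all probe sets was -0.0388. With each array centred on its median, the median of the 44 genes was -0.131, 38 were below 0, and the median of all probe sets was -0.0692. The part of signal level and normalization in the shift was not tested. Of the 2783 probe sets above the 90th percentile, 14 passed the test (0.503%), against 2.17% of all probe sets.

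**Figure D2:**
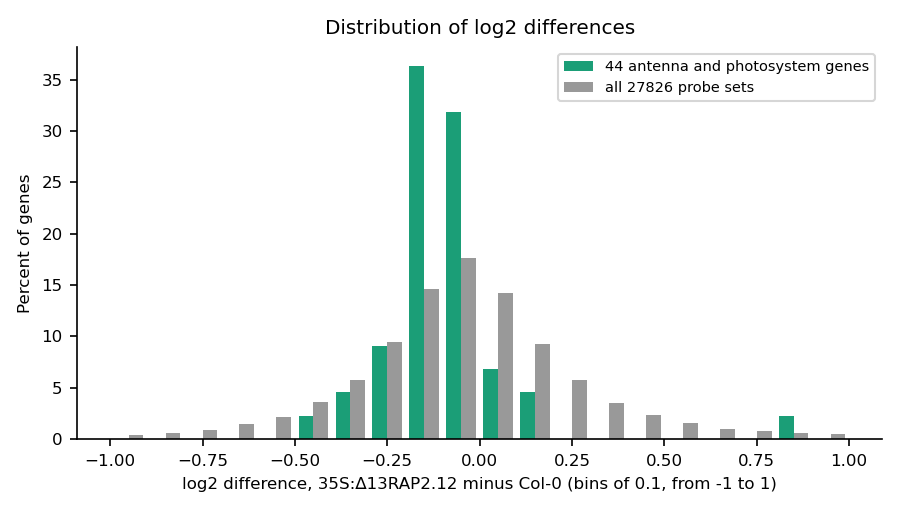
Share of the 44 antenna and photosystem genes (green) and of all 27826 probe sets (grey) in bins of 0.1 of the log2 difference, 35S:∆13RAP2.12 minus Col-0. The green bars gather between -0.2 and 0, which holds 30 of the 44 genes, and ELIP2 and 3.94% of all probe sets lie outside the range shown, which ends at -1 and 1.

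The photosystem I antenna was narrow in its differences. LHCA1 to LHCA4 form the belt of antenna proteins on one side of photosystem I, and LHCA5 and LHCA6 are known to join photosystem I to the NDH complex of cyclic electron flow. LHCA5 (AT1G45474) had log2 levels of 11.07 and 11.18 in the samples labelled 35S:∆13RAP2.12, against 11.27 and 11.34 in the Col-0 samples, a difference of -0.18 (SE 0.12, adjusted p = 0.534). LHCA2 (AT3G61470) measured 12.75 and 12.80 in 35S:∆13RAP2.12, against 12.92 and 12.83 in Col-0 (difference -0.10, adjusted p = 0.735). LHCA6 (AT1G19150) gave 12.03 on both arrays labelled 35S:∆13RAP2.12, against 12.12 on both Col-0 arrays (difference -0.09, adjusted p = 0.751). In each of these genes the groups did not overlap, but the gap was small. LHCA3 (AT1G61520) had 11.89 and 11.85 in 35S:∆13RAP2.12, against 11.97 and 11.94 in Col-0 (difference -0.08, adjusted p = 0.769). The remaining genes LHCA4 (AT3G47470) and LHCA1 (AT3G54890) differed by -0.06 and 0.08. All 6 intervals lay between -0.49 and 0.37, and the median of the group was -0.09.

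The trimeric antenna of photosystem II showed one direction in LHCB1 and several in LHCB2. LHCB1, LHCB2 and LHCB3 build the LHCII trimers, the most abundant antenna, and LHCB1 and LHCB2 are phosphorylated when the antenna is moved between photosystems. All 5 LHCB1 genes had a difference below 0, from -0.33 to -0.11 with a median of -0.22, and none passed. LHCB1.5 (AT2G34420) measured 12.24 and 12.25 in the samples labelled 35S:∆13RAP2.12, against 12.43 and 12.49 in the Col-0 samples (difference -0.22, SE 0.11, adjusted p = 0.431). LHCB1.2 (AT1G29910) had 11.56 and 11.47 in 35S:∆13RAP2.12, against 11.89 and 11.59 in Col-0 (difference -0.23, SE 0.15, adjusted p = 0.543). Both genes were separated between the groups, LHCB1.2 by less than its gap between Col-0 replicates. LHCB1.1 (AT1G29920) had the widest interval of the 5, -1.23 to 0.56, with arrays far apart: 4.96 and 4.09 in 35S:∆13RAP2.12 and 5.06 and 4.66 in Col-0, where the groups overlapped. With replicate 2 of 35S:∆13RAP2.12 left out its difference was 0.10.

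LHCB2.3 was the exception among the trimer genes. LHCB2.3 (AT3G27690) had log2 levels of 4.80 and 4.53 in the samples labelled 35S:∆13RAP2.12, against 4.17 and 3.41 in Col-0. Both arrays labelled 35S:∆13RAP2.12 lay above both Col-0 arrays, and the Col-0 replicates were 0.767 apart. The difference was 0.88 (SE 0.29, 95% interval 0.11 to 1.65, adjusted p = 0.257), and it was 1.26 without Col-0 replicate 1 and 0.496 without Col-0 replicate 2. Both group means lay below the lower quartile of all values, 4.80, where signal over background is unknown, so the size of this difference is not determined. The other LHCB2 genes differed by 0.18 (LHCB2.2) and -0.05 (LHCB2.1). For the remaining 5 trimer genes, LHCB2.2 (AT2G05070), LHCB1.4 (AT2G34430), LHCB1.3 (AT1G29930), LHCB3 (AT5G54270) and LHCB2.1 (AT2G05100), adjusted p ran from 0.577 to 0.888.

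Several of these genes are close copies of each other. In the gene order of assembly TAIR10.1, LHCB1.2, LHCB1.1 and LHCB1.3 follow each other with 0 other protein-coding genes between neighbours, as do LHCB1.5 with LHCB1.4 and LHCB2.2 with LHCB2.1. Their coding sequences are known to be nearly identical, and the sources used here do not list the probes of each probe set. The values of single LHCB1 and LHCB2 copies are therefore uncertain, since a probe may read more than 1 copy.

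In the monomeric antenna all 6 genes were below 0, with a median of -0.17. LHCB4, LHCB5 and LHCB6, also called CP29, CP26 and CP24, link the trimers to the photosystem II core, and LHCB7 is a less studied relative. LHCB7 (AT1G76570) measured 7.60 and 7.56 in the samples labelled 35S:∆13RAP2.12, against 7.77 and 8.18 in the Col-0 samples (difference -0.39, SE 0.17, 95% interval -0.85 to 0.07, adjusted p = 0.381). The groups were separated, but the Col-0 replicates lay 0.409 apart, more than the difference, which was -0.594 without Col-0 replicate 1 and -0.185 without Col-0 replicate 2. LHCB5 (AT4G10340) was 12.68 and 12.69 in 35S:∆13RAP2.12, against 12.90 and 12.82 in Col-0 (difference -0.17, adjusted p = 0.535). LHCB4.3 (AT2G40100), the third copy of the CP29 gene, had 7.59 and 7.49 in 35S:∆13RAP2.12, against 7.60 and 7.83 in Col-0 (difference -0.17, adjusted p = 0.619). LHCB6 (AT1G15820) had 11.49 and 11.47 in 35S:∆13RAP2.12, against 11.76 and 11.53 in Col-0 (difference -0.16, adjusted p = 0.631). In LHCB5, LHCB4.3 and LHCB6 the groups were separated as well, and in LHCB4.1 (AT5G01530) and LHCB4.2 (AT3G08940) they overlapped, with differences of -0.04 and -0.03. Without Col-0 replicate 1 the difference was -0.292 for LHCB4.3 and -0.0456 for LHCB6, and without Col-0 replicate 2 it was -0.0526 for LHCB4.3 and -0.274 for LHCB6. LHCB4.2 changed sign, to 0.0121 without Col-0 replicate 1 and to 0.0139 when replicate 1 of 35S:∆13RAP2.12 was dropped.

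The photoprotective genes ELIP1 and ELIP2 pointed in opposite directions. Early light-induced proteins (ELIPs) are relatives of the LHC proteins that accumulate in thylakoids under strong light, and PSBS senses the acid lumen and triggers the release of excess light energy as heat. ELIP2 (AT4G14690) had log2 levels of 6.94 and 6.38 in the samples labelled 35S:∆13RAP2.12, against 6.02 and 5.19 in the Col-0 samples. Both arrays labelled 35S:∆13RAP2.12 were above both Col-0 arrays, with replicates 0.823 apart in Col-0. The difference of 1.06 (SE 0.35, 95% interval 0.13 to 1.98, adjusted p = 0.256), or 2.08-fold, was the largest among the 44 genes and did not pass. It was 1.47 without Col-0 replicate 1 and 0.644 without Col-0 replicate 2. ELIP1 (AT3G22840) measured 6.53 and 6.17 in 35S:∆13RAP2.12, against 6.73 and 6.87 in Col-0, again without overlap (difference -0.45, SE 0.17, 95% interval -0.90 to 0.01, adjusted p = 0.312). Its difference was -0.263 when replicate 2 of 35S:∆13RAP2.12 was dropped. PSBS (AT1G44575) was lower without overlap but by a small margin, with 11.86 and 11.77 in 35S:∆13RAP2.12 and 11.97 and 11.94 in Col-0 (difference -0.14, adjusted p = 0.614).

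**Figure D3:**
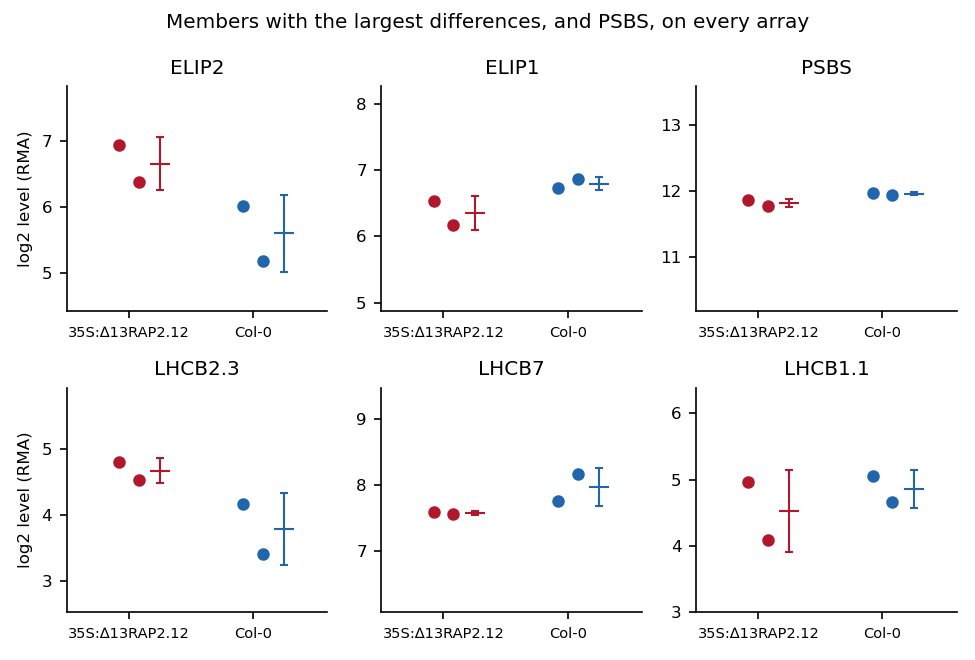
Log2 level of ELIP2, ELIP1, PSBS, LHCB2.3, LHCB7 and LHCB1.1 on each array (points), with mean and SD (bars) of the arrays labelled 35S:∆13RAP2.12, left, and of Col-0, right. Every panel spans the same range of log2 units. ELIP2 and LHCB2.3 are higher on both arrays labelled 35S:∆13RAP2.12 with Col-0 replicates far apart, ELIP1 and LHCB7 are lower on both, and PSBS differs by -0.14.

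The opposite directions of the ELIP copies gave a difference between their log2 changes, ELIP2 minus ELIP1, of 1.501, with SDs between replicates of 0.136 in 35S:∆13RAP2.12 and 0.683 in Col-0. A two-sided exact permutation test over the 4 arrays gave p = 0.333, the smallest that 2 arrays against 2 allow, so this design cannot reach the threshold. The same comparison was made for 7 pairs of gene copies. PSAD2 minus PSAD1 was 0.35 and LHCB2.2 minus LHCB2.1 was 0.23, both with arrays separated by group and the same p. Of single probe sets 48.6% were separated by group in either direction, and the share for other pairs of genes was not computed. In the other 4 pairs, of PSAH, PSBO, PSBQ and LHCB4, the arrays overlapped and the copies differed in their changes by 0.01 to 0.08 in size.

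The estimated differences of the 11 photosystem I subunits were all under 0.25 in size, with intervals between -0.62 and 0.43. PSAD and PSAE form the stromal ridge where ferredoxin docks, PSAF receives plastocyanin, and PSAH, PSAL and PSAO lie where LHCII docks. PSAD1 (AT4G02770) measured 10.87 and 10.60 in the samples labelled 35S:∆13RAP2.12, against 10.99 and 10.97 in the Col-0 samples (difference -0.24, SE 0.14, adjusted p = 0.480). PSAE1 (AT4G28750) gave 12.04 and 11.90 in 35S:∆13RAP2.12, against 12.10 and 12.24 in Col-0 (difference -0.21, SE 0.13, adjusted p = 0.515). Both were separated between groups by a narrow margin. PSAH2 (AT1G52230) had 11.55 and 11.52 in 35S:∆13RAP2.12, against 11.52 and 11.82 in Col-0 (difference -0.13, adjusted p = 0.731), with overlap, and without Col-0 replicate 2 its difference was 0.02. PSAL (AT4G12800) had 12.21 and 12.24 in 35S:∆13RAP2.12, against 12.35 and 12.32 in Col-0 (difference -0.11, adjusted p = 0.689). The other 7 genes, PSAD2 (AT1G03130), PSAO (AT1G08380), PSAH1 (AT3G16140), PSAG (AT1G55670), PSAF (AT1G31330), PSAN (AT5G64040) and PSAK (AT1G30380), ranged from -0.10 to 0.11, 5 of them below 0, with intervals between -0.40 and 0.43. PSAK, a subunit next to the LHCA belt, was the closest to 0 at 0.0067. The median of the group was -0.09.

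The estimated differences of the 9 photosystem II subunits were all under 0.20 in size, with intervals between -0.50 and 0.37. PSBO, PSBP and PSBQ shield the manganese cluster that splits water, PSBR assists their binding, and PSBW, PSBX and PSBY are small membrane subunits. PSBP1 (AT1G06680) had 12.43 and 12.44 in the samples labelled 35S:∆13RAP2.12, against 12.65 and 12.60 in the Col-0 samples (difference -0.19, SE 0.11, adjusted p = 0.481). PSBO2 (AT3G50820) measured 11.32 and 11.46 in 35S:∆13RAP2.12, against 11.59 and 11.57 in Col-0 (difference -0.19, SE 0.12, adjusted p = 0.521). PSBQ2 (AT4G05180) had 12.49 and 12.43 in 35S:∆13RAP2.12, against 12.57 and 12.67 in Col-0 (difference -0.16, adjusted p = 0.587). These genes of the water-splitting side all lay lower on both arrays labelled 35S:∆13RAP2.12. PSBY (AT1G67740) had 10.39 and 10.40 in 35S:∆13RAP2.12, against 10.43 and 10.63 in Col-0 (difference -0.13, adjusted p = 0.681). The remaining 5 genes, PSBO1 (AT5G66570), PSBQ1 (AT4G21280), PSBR (AT1G79040), PSBX (AT2G06520) and PSBW (AT2G30570), ranged from -0.11 to 0.08. PSBR was the only photosystem II subunit above 0, at 12.76 and 12.73 in 35S:∆13RAP2.12 and 12.67 and 12.65 in Col-0. The arrays of all 9 genes were separated by group, 8 downwards and 1 upwards, where 48.6% of all probe sets were separated in either direction and 41.8% of those above the 90th percentile of level downwards. The median was -0.11.

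The mean level of each complex was separated by group, downwards, in 4 of the 6 groups. Of single probe sets above the 90th percentile of level, 41.8% were separated downwards and 70.1% were below 0. The share for means of other gene lists was not computed. The mean log2 level of the 9 photosystem II subunits was 12.142 ± 0.00533 in 35S:∆13RAP2.12 and 12.245 ± 0.0216 in Col-0 (SD, n = 2 arrays each). For the 11 photosystem I subunits it was 11.924 ± 0.0357 in 35S:∆13RAP2.12 and 12.009 ± 0.0160 in Col-0, and for the 6 LHCA genes 11.237 ± 0.0153 in 35S:∆13RAP2.12 and 11.310 ± 0.00345 in Col-0. The monomer genes averaged 10.327 ± 0.0147 in 35S:∆13RAP2.12 and 10.488 ± 0.0279 in Col-0. In these 4 groups the difference was larger than the SDs between replicates. The trimer genes averaged 9.677 ± 0.0923 in 35S:∆13RAP2.12 and 9.695 ± 0.106 in Col-0, a difference of -0.02 within that spread, while the median of the single differences was -0.11. The 3 genes ELIP1, ELIP2 and PSBS averaged 8.275 ± 0.238 in 35S:∆13RAP2.12 and 8.120 ± 0.167 in Col-0, also within the spread. After a second quantile normalization the medians were -0.0464 for LHCA, -0.0401 for photosystem I and -0.0613 for photosystem II.

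**Figure D4:**
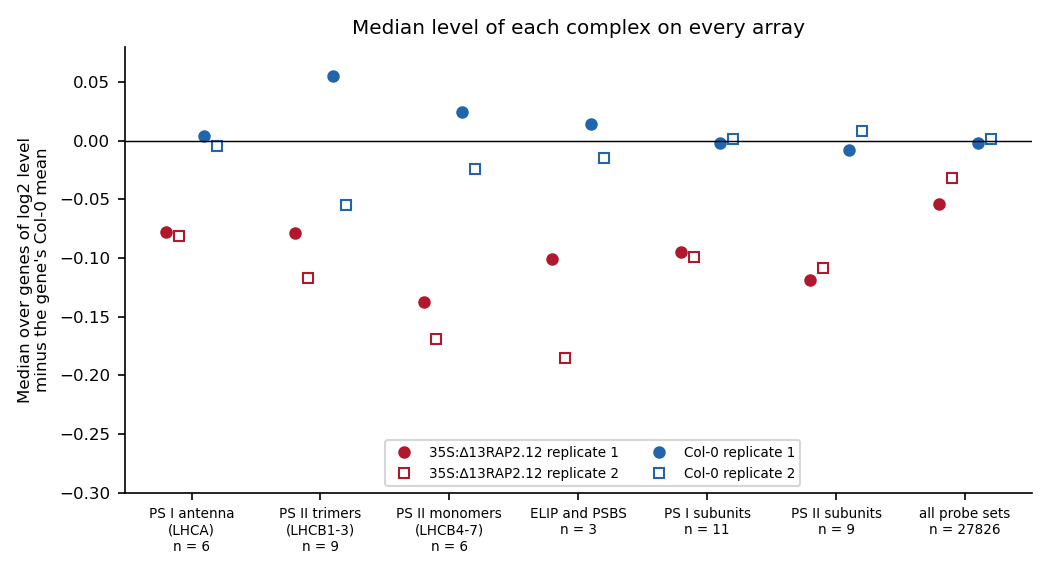
Median over the genes of each complex of the log2 level minus the gene's Col-0 mean, on each of the 4 arrays, with all probe sets at the right. Arrays labelled 35S:∆13RAP2.12 (red) lie between -0.185 and -0.0773 in the 6 complexes and at -0.0539 and -0.0320 over all probe sets. For the 3 genes ELIP1, ELIP2 and PSBS the median is the value of PSBS, while the difference of the group's mean level is 0.16. The difference of the mean level of the trimer genes is -0.02. Col-0 arrays (blue) lie around 0, up to 0.0550 from it, because each gene's Col-0 mean is subtracted.

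Other genes of photosynthesis were followed in 10 lists of 89 genes, 83 of them analysed here. Over these 83 genes 1 was called higher and 0 lower, where 1.74% of all probe sets were called higher and 0.424% lower, and the median log2 difference was -0.06. The called gene was HEMA1, which encodes glutamyl-tRNA reductase, the enzyme that commits glutamate to chlorophyll and haem synthesis. HEMA1 (AT1G58290) measured 9.23 and 9.36 in the samples labelled 35S:∆13RAP2.12, against 7.99 and 7.58 in the Col-0 samples. Both arrays labelled 35S:∆13RAP2.12 were well above Col-0, and the rise of 1.51 (SE 0.18, 95% interval 1.03 to 1.99, adjusted p = 0.0385) was 2.85-fold. Its size held but its call did not when any array was left out: 1.72 without Col-0 replicate 1 (adjusted p = 0.120), 1.303 without Col-0 replicate 2 (adjusted p = 0.158), 1.58 when replicate 1 of 35S:∆13RAP2.12 was dropped (adjusted p = 0.108), and 1.44 when replicate 2 of 35S:∆13RAP2.12 was dropped (adjusted p = 0.115). The call was also lost with the replicate number as a block, at an adjusted p of 0.0546.

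The other 14 genes of chlorophyll synthesis did not pass, and the list median was -0.03. PORC, a light-dependent protochlorophyllide oxidoreductase named after its values were seen, had 10.63 and 10.65 in 35S:∆13RAP2.12, against 11.07 and 11.04 in Col-0 (difference -0.41, SE 0.11, adjusted p = 0.187). In chlorophyll breakdown 0 of 9 passed, with a median of 0.05, and NYC1, a chlorophyll b reductase, had the smallest p, with a difference of 0.46 (adjusted p = 0.267). Among 10 transcription regulators 0 passed and the median was 0.07. The GATA factor GNC was nearest, with 10.77 and 10.75 in 35S:∆13RAP2.12, against 10.11 and 10.23 in Col-0 (difference 0.59, SE 0.12, adjusted p = 0.112). GLK1 and GLK2, activators of antenna and chlorophyll genes, and the plastid sigma factor SIG1 were named after their values were seen. GLK1 measured 10.25 and 10.34 in 35S:∆13RAP2.12, against 10.73 and 10.71 in Col-0 (difference -0.43, SE 0.11, adjusted p = 0.185). GLK2 differed by -0.36 (adjusted p = 0.347) and SIG1 by 0.63 (adjusted p = 0.176). When the prior variance followed the signal level, GNC, SIG1, GLK1 and PORC passed (adjusted p = 0.00585, 0.0149, 0.0210 and 0.0155), as did 6.32% of all probe sets, and still 0 of the 44 antenna and photosystem genes did, with a smallest adjusted p of 0.0686 for LHCB1.5.

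Medians of the remaining lists ran from -0.10 to 0.002. The median was -0.04 over all probe sets and -0.06 over those above the 90th percentile of level. For 11 genes of electron transport and ATP synthase the median was -0.10, and ATPC1 had the smallest p, with a difference of -0.19 (adjusted p = 0.496). For 11 Calvin cycle genes it was -0.09, and the phosphoribulokinase PRK had the smallest p, with a difference of -0.35 (adjusted p = 0.434). For 6 LHC-like proteins it was -0.10, with OHP2 at -0.17 (adjusted p = 0.596). For 7 further photosystem subunits it was -0.09, and PSBP2, a second PSBP gene, had a difference of 0.40 (adjusted p = 0.311). The 4 genes of antenna insertion had a median of 0.002 with CPSRP54, a signal recognition particle protein, at 0.11 (adjusted p = 0.713), and the 8 genes of antenna regulation had -0.04 with the LHCII kinase STN7 at -0.17 (adjusted p = 0.556). Of 8 plastid-encoded photosystem genes 2 were analysed here, PSBA at -0.05 and PSBE at -0.14 (adjusted p = 0.882 and 0.636). None of the genes in these lists passed.

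**Figure D5:**
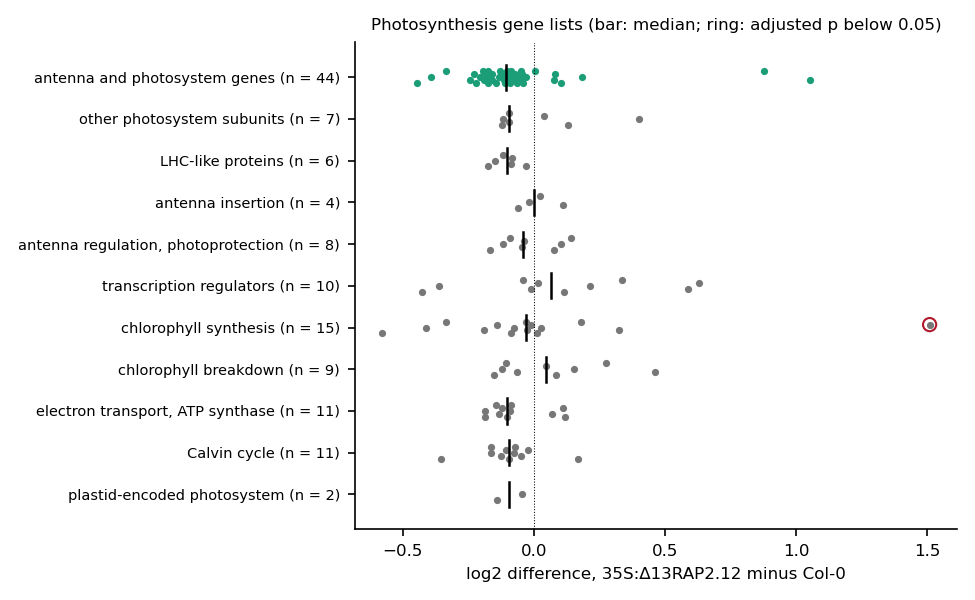
Log2 difference, 35S:∆13RAP2.12 minus Col-0, of the 44 antenna and photosystem genes (green, top) and of the genes of 10 photosynthesis lists (grey), with a bar at each median and a ring around genes with an adjusted p below 0.05. HEMA1 at 1.51 is the only ringed gene, and the spread is wider in transcription regulators and chlorophyll synthesis than in electron transport.

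Markers of other leaf cell types were checked because fewer cells of a type and less RNA per cell cannot be told apart in whole rosettes. Of 4 guard cell markers 1 passed, the transcription factor MYB60, with a difference of -1.01 (SE 0.13, limma adjusted p = 0.0445), and 3 did not. Of these, HT1 (-0.89, adjusted p = 0.114) and KAT1 (-0.55, adjusted p = 0.290) were lower without overlap, as were 29.1% of all probe sets. FAMA differed by 0.04. The MYB60 call was lost with any 1 of the 4 arrays left out, with adjusted p between 0.126 and 0.219, and with the replicate number as a block, at an adjusted p of 0.0627. Summed on the linear scale, the guard cell markers gave 1726 and 1606 in 35S:∆13RAP2.12, against 1991 and 2066 in Col-0. FAMA, at log2 levels of 9.88 to 9.96, weighs most in this sum. None of the 4 epidermal or 3 phloem markers passed, and 3 of the 4 and 2 of the 3 were below 0. ATML1 of the epidermis differed by -0.71 (adjusted p = 0.102) and SEOR1 of the phloem by -0.45 (adjusted p = 0.187). In the other direction, CER1 of the epidermis differed by 0.32 (adjusted p = 0.486) and APL of the phloem by 0.09 (adjusted p = 0.738). Both were higher without overlap, as were 19.5% of all probe sets. The epidermal sums were 6569 and 6072 in 35S:∆13RAP2.12 against 6603 and 7272 in Col-0. The phloem sums were 2400 and 2374 in 35S:∆13RAP2.12 against 2795 and 2430 in Col-0. The 4 leaf markers summed to 24044 and 23907 in 35S:∆13RAP2.12 and to 25356 and 24745 in Col-0. The part of cell composition in the differences of the antenna and photosystem genes was not tested.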

How the data were processed

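Values were deposited by the authors as RMA expression values on the log2 scale, RMA per the submitters' processing notes and the scale per the range of the values. The software behind them was not given in the sources used here, nor were its version and the probe sets' probes. Every column of values (4) was used. The series describes 3 replicates per line, and further arrays were not analysed here. All 27826 probe sets entered 1 linear model per probe set (limma 3.58.1 under R 4.3.3, default eBayes, no covariates, Benjamini-Hochberg over all probe sets, called below 0.05), with 2 residual and 2.55 prior degrees of freedom. No filter, pseudocount or further normalization was applied. Array number limits precision, and no raw intensities or detection calls were used. Intervals are 95% moderated intervals, errors beside levels are SDs. Tests were tried on simulated data. Symbols were checked in the gene table of TAIR10.1, where all 44 loci matched.

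Members and lists were chosen with earlier results of these data known. Values on every array are given for the 4 genes with the largest absolute difference in each of 6 groups and for ELIP1, ELIP2 and PSBS. Of each list up to 3 called genes, or the gene with the smallest p, were named. Alternatives were a replicate block, repeated quantile normalization, median centring, removal of probe sets under the 25th percentile of mean level, an intensity trend, a robust prior, array weights, other thresholds (0.01 and 0.10) and each array left out. Plots used matplotlib 3.10.9 (Python 3.11.15).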

Additional observations from a re-analysis of the deposited data

How the results depend on the processing

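With the replicate block, repeated quantile normalization or median centring, 0 of the 44 antenna and photosystem genes were called. The same count came with an intensity trend, a robust prior, array weights and a threshold of 0.10. The low-signal filter kept 42 of them, without LHCB1.1 and LHCB2.3, and 0 were called. A threshold of 0.01 could not add a call where 0 were called at 0.05. A fit with 1 array left out has a lone array in 1 line, so a lack of calls there says little. The count over all probe sets (603 as reported) was 1759 with an intensity trend, 160 at a threshold of 0.01 and 1203 at 0.10, and ran between 0 and 315 with 1 array left out. The count in the photosynthesis lists (1 as reported, HEMA1) was 5 with the trend, and 0 with the replicate block, at 0.01 and with any array left out. Same-numbered arrays did not deviate together (r = 0.0349 over probe sets). With 2 arrays per group this cannot show whether the arrays were handled in pairs. The smallest adjusted p among the 44 genes with the block was 0.0688, for ELIP2. Of the named genes the block ended the calls of HEMA1 and of the guard cell marker MYB60 (adjusted p = 0.0627). MYB60 was also not called at 0.01 or with any array left out. With repeated quantile normalization the median was -0.0594 over the 44 genes, -0.0464 for LHCA, -0.124 for the monomeric antenna, -0.0401 for photosystem I and -0.0613 for photosystem II. With median centring these were -0.131, -0.113, -0.192, -0.112 and -0.138. With 1 array left out they ran from -0.104 to -0.0909, from -0.0931 to -0.0627, from -0.169 to -0.0886, from -0.0992 to -0.0783 and from -0.118 to -0.0789. The lone array of a line is then assumed to vary like the others. Signs changed in 7 genes, none of them called. With repeated quantile normalization LHCB4.1 was 0.0031, LHCB4.2 0.019 and PSAN 0.0056, and with median centring PSAK was -0.019. With 1 array left out, LHCB1.1 ran from -0.771 to 0.103, LHCB2.1 from -0.117 to 0.0208, LHCB4.2 from -0.0754 to 0.0139, PSAH2 from -0.279 to 0.0186, PSAK from -0.0226 to 0.0361 and PSAN from -0.0950 to 0.0091. The cause of these changes was not tested. Signal over background and saturation are unknown, which limits LHCB2.3 and LHCB1.1 at the low end and most photosystem genes at the high end.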
